A study of Mus musculus with 2 samples.

Results

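CCK-dominant I cells are the enteroendocrine cells in which Cck was the most abundant of 7 gut hormone transcripts. They were selected from 8148 cells of 2 single-cell RNA-Seq libraries of mouse small intestine by measured values alone. A barcode counted as an I cell when it held at least 500 genes, at least 1000 UMIs, at most 25% mitochondrial UMIs and fewer than 3 Neurog3 UMIs, when Cck had more UMIs than Gip, Gcg, Pyy, Sst, Ghrl and Nts, and when Cck made up at least 1% of its UMIs. A UMI, or unique molecular identifier, marks 1 captured transcript molecule. This gave 334 I cells, 96 in the WT library and 238 in the library labelled NFKO, which is 4.10% of the cells that passed the same limits (95% exact binomial interval 3.68 to 4.55) and 17.1% of the 1949 cells led by any of the 7 hormones (15.5 to 18.9). The WT mice carried Neurog3Cre; Rosa26tdtomato and the other mice Neurog3Cre-FoxO1 f/f; Rosa26tdtomato, so that all carried the Cre and the red reporter and differed, per the labels, in the floxed FoxO1 alleles. Neurog3 is switched on in endocrine progenitors of the gut, so that the sorted Tomato+ cells were the lineage of those progenitors and not endocrine cells alone. For each library the small intestines of 4 to 5 mice aged 4 to 6 weeks were pooled, and pancreatic tissue had been dissected away. With 1 library per genotype there is no replicate check, no test was possible, and every interval given here covers counting error only.

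I cells are endocrine cells of the proximal small intestine that release cholecystokinin, CCK, after a meal. Fat and protein in the gut lumen act on receptors of these cells, which depolarise and empty their granules. CCK then contracts the gallbladder, drives secretion of pancreatic enzymes, slows gastric emptying and acts on vagal nerve endings to bring satiety. The hormone is cut from a larger precursor by prohormone convertases and carboxypeptidase E, sulphated on a tyrosine and amidated at its C terminus. Hormones of the gut are often made together in the same endocrine cell, and the mixture changes along the intestine and as a cell moves up the villus.

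The libraries held 5051 and 7540 barcodes with 90002878 and 124300388 UMIs, of which 2952 WT cells and 5196 cells labelled NFKO passed. I cells summed to 1423605 UMIs in WT and to 4498513 UMIs in the library labelled NFKO, with a median of 14247 UMIs per cell in WT (3500 to 67210) and 18331.5 in the library labelled NFKO (1024 to 82259). The libraries differed in sex: 78 of 96 WT I cells were male-typed and 0 female-typed (a Y-linked UMI without Xist, or Xist without a Y-linked UMI), against 12 male-typed and 203 female-typed of 238, so sex and genotype label cannot be told apart here. The libraries shared 6 barcodes, and 0 of them involved an I cell. Levels are given in CPM, that is, a gene's share of the summed UMIs of a cell class times 1000000, and 3 UMIs, the limit that a count of 0 allows, correspond to 2.11 CPM in WT I cells and 0.667 CPM in those labelled NFKO.

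The markers given for this cell type were all present. Cck (ENSMUSG00000032532, chromosome 9, 121489824 to 121495694, minus strand, build mm10) took between 1.07% and 15.5% of a WT I cell's UMIs, with a median of 5.98%, and between 1.03% and 26.9% in the library labelled NFKO, with a median of 8.44%. These percentages chose the cells and are given as a description. Of the 334 cells, 27 lay between 1 and 2% Cck, 84 between 2 and 5%, 109 between 5 and 10%, 106 between 10 and 20% and 8 above 20%, and those 8 were all in the library labelled NFKO. The range was wide and had no gap, as the plot of Cck per cell shows. The lowest cells inside the limit held 1.07% and 1.03% Cck, and the highest cells outside it that Cck also led held 0.934% and 0.961%.

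**Figure D1:**
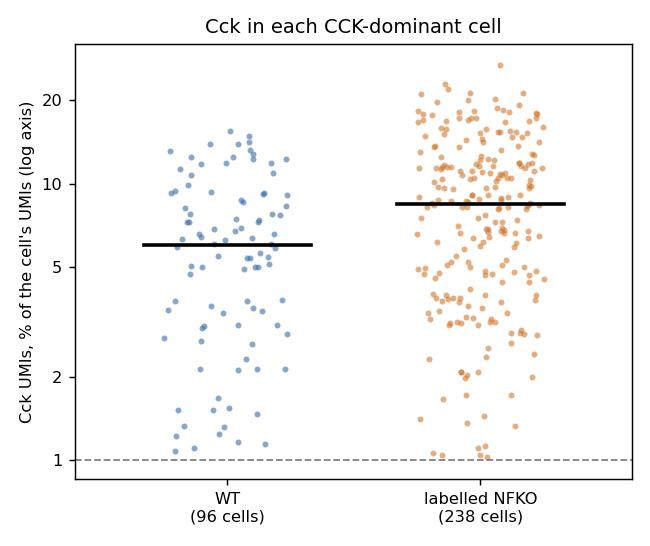
Each point is 1 I cell; the vertical axis (log scale) is Cck as a percentage of the cell's UMIs, the black bars are the medians (5.98% in WT, 8.44% in the library labelled NFKO), and the dashed line is the limit of 1% used to select cells. The 96 WT cells reach 15.5% and the 238 cells labelled NFKO reach 26.9%.

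Onecut3 (chromosome 10, 80494835 to 80517276), a homeodomain transcription factor of the CUT family, and Scg2 (chromosome 1, 79434669 to 79440120), the granin secretogranin 2, are the other markers. Onecut3 had 342 UMIs in WT I cells and 1639 in those labelled NFKO. After random thinning of every cell to 2000 UMIs (0 WT I cells and 19 of the others were shallower and dropped), Onecut3 was seen in 31.2% of WT I cells (22.2 to 41.5) and 39.3% of I cells labelled NFKO (32.8 to 46.1). Without thinning the shares were 55.2% and 63.0%. In goblet-marker cells, picked by Muc2 or Tff3, which should lack it, the thinned shares were 0.0682% and 0.231%, with median depths of 26068 and 24366.5 UMIs. Scg2 was seen in 70.8% and 73.1% of thinned I cells, and in 0.477% and 1.89% of thinned goblet-marker cells. Both markers thus lay far above the free RNA level of the same library. Neurog3 itself was at 0 UMIs in 95 of 96 and 232 of 238 I cells.

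I cells were 3.25% of the passing WT cells (2.64 to 3.96) and 4.58% of those labelled NFKO (4.03 to 5.18), a ratio of shares of 1.41 (1.11 to 1.80). Among hormone-led cells they were 15.1% (12.4 to 18.1) and 18.1% (16.1 to 20.3), a ratio of 1.20 whose interval of 0.946 to 1.54 held 1. In male-typed cells of both libraries the ratio over passing cells was 1.07, from 78 of 2382 and 12 of 341 cells, too few to tell it from 1.41. The excess of I cells in the library labelled NFKO was thus seen over all passing cells, and was within counting error over hormone-led cells. K cells (led by Gip) had a ratio of 1.33 over passing cells, N cells (led by Nts) 1.39, L cells (led by Gcg or Pyy) 0.660, D cells (led by Sst) 1.43 (0.994 to 2.10) and X cells (led by Ghrl) 1.06.

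To see what else these cells hold, each gene was set beside the 541 WT and 1074 NFKO-labelled cells led by another of the 7 hormones. The selection made this contrast, so that it is a description. Of 3115 genes compared (in each library, at least 50 CPM in either class and 100 UMIs over both), 18 were at least 2-fold higher in I cells in each library (0.578%) and 26 at least 2-fold lower in each (0.835%). The gene with the highest ratio was Pzp (chromosome 6, 128483567 to 128526720, minus strand), which encodes pregnancy zone protein, a secreted protease inhibitor of the alpha-2-macroglobulin family made mainly by liver. Pzp had 164 UMIs in WT I cells, or 115 CPM, against 0.458 CPM in other hormone-led cells, a ratio of 252. In I cells labelled NFKO it had 702 UMIs, or 156 CPM, against 1.61 CPM, a ratio of 97.0. Pzp was not in every I cell: 22 of 96 and 82 of 238 held a UMI, and it took the 6 and 18 richest cells to make up 0.5 of its UMIs. Thinned goblet-marker cells held Pzp in 0 of 1467 and 0.0385% of cells, against 11.5% and 18.3% of thinned I cells.

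Cck itself stood at 64548 CPM in WT I cells and 11263 CPM in the other hormone-led cells, and at 95022 against 8300 CPM in the library labelled NFKO. Onecut3 was at 240 against 64.0 CPM in WT (3.76-fold) and 364 against 50.4 CPM in the other library (7.24-fold). Rgs2, a regulator that shortens signalling by Gq-coupled receptors, was at 235 against 51.3 CPM and at 420 against 37.0 CPM. Agr3, a protein disulphide isomerase of the endoplasmic reticulum, was at 210 against 42.1 CPM and at 323 against 40.0 CPM. Ambp, which encodes the precursor of alpha-1-microglobulin and bikunin, was at 189 against 28.9 CPM and at 326 against 94.9 CPM. Like Pzp, Ambp is best known as a plasma protein gene of liver.

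The other genes named by the same rule were Gm49708, a processed transcript (4.73-fold and 5.02-fold), Slc39a8, a zinc and manganese importer (3.28 and 3.70), Homer2, a postsynaptic scaffold protein (3.69 and 3.22), Cyp2j6, a cytochrome P450 (3.17 and 3.64), Tril, a co-receptor of Toll-like receptors (2.79 and 5.86), Parm1, a membrane mucin-like protein (2.76 and 3.43), Adgrg4, an adhesion G protein-coupled receptor (2.75 and 3.35), Fmo5, a flavin-containing monooxygenase (2.59 and 3.24), and Fars2, the mitochondrial phenylalanyl-tRNA synthetase (2.56 and 3.21). Scg2 was higher in I cells by 1.90-fold in WT and 2.69-fold in the other library, and so did not reach 2-fold in each.

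These genes did not separate I cells from every other class equally. In each library all 15 leading genes exceeded K cells and L cells with a counting interval above 1. Beside N cells, 7 of 15 did so in WT and 14 of 15 in the library labelled NFKO. K cells (213 of 541 in WT, 497 of 1074 in the other library) and L cells (148 and 172) belong to the group the genes were chosen against. The excess over K and L cells was thus largely set by that choice and is a description. Onecut3 was at 277 CPM in WT N cells, against 240 in I cells, and at 184 CPM in N cells labelled NFKO, against 364. Agr3 was at 233 and 183 CPM in N cells, and Rgs2 at 222 and 118 CPM. Pzp differed from these, at 0 CPM in WT N cells (0 UMIs allow up to 4.73 CPM) and 1.61 CPM in N cells labelled NFKO.

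**Figure D2:**
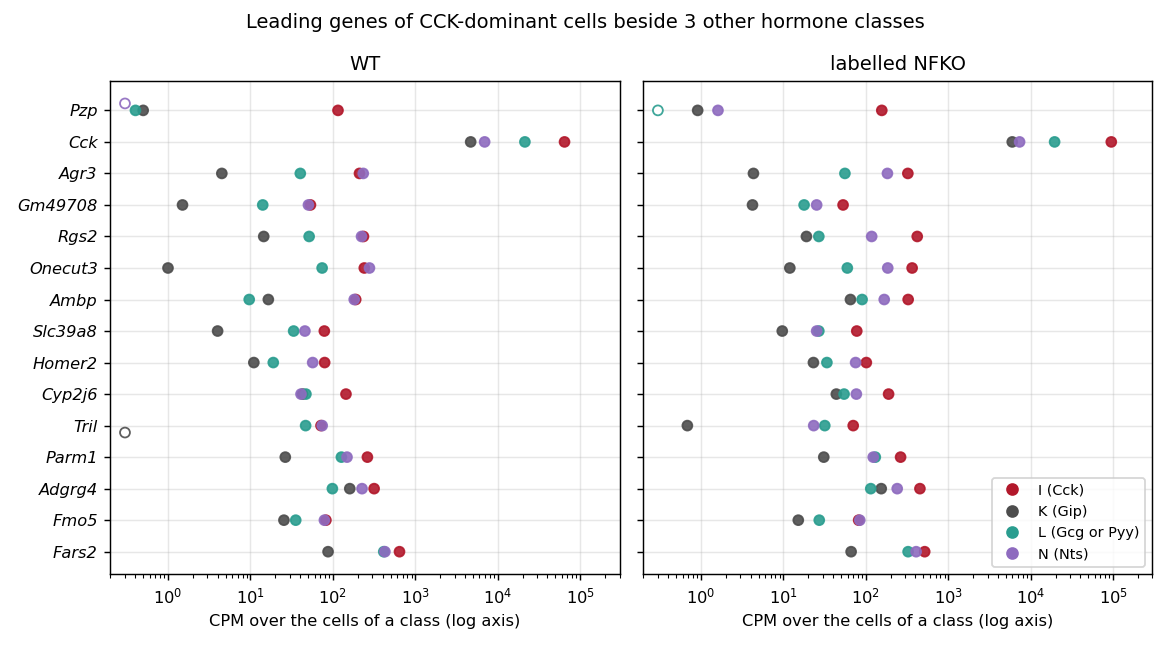
Levels in CPM (log axis) of the 15 genes most raised in I cells, in I, K, L and N cells of each library; open circles at the left edge stand for levels of 0.3 CPM or less. Pzp lies at 115 and 156 CPM in I cells and near the left edge elsewhere, whereas N cells lie close to I cells for Agr3, Rgs2 and Onecut3 in WT.

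The sequence upstream of the starts of Cck and Pzp, the hormone gene that selects the cells and the gene with the highest ratio, is shown for context (RefSeq, build GRCm38.p6, 250 bases before the annotated start, minus strand, read 5′ to 3′). Capitals mark ATCAAT or its reverse complement ATTGAT, the core of sites that ONECUT proteins bind, and CGTCA or its reverse complement TGACG, the core of the cAMP response element. Both motifs were picked after the windows were read, and no pair of matches overlapped.
Cck: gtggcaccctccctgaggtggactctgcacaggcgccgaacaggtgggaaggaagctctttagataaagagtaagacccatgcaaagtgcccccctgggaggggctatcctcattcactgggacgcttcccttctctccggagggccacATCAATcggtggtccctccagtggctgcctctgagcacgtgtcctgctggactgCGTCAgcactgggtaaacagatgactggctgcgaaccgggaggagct
Pzp: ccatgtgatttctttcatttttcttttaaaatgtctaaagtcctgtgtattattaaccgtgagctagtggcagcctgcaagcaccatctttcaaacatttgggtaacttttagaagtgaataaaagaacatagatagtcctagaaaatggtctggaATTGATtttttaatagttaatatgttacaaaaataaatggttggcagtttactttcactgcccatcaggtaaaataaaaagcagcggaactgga
The Cck window is chr9:121495695-121495944, and in it ATCAAT begins 101 bases and CGTCA 47 bases before the start. The Pzp window is chr6:128526721-128526970, where ATTGAT begins 94 bases before the start. Of the 15 leading genes 13 had a window, and ATCAAT in either direction stood in 4 of them (Pzp, Cck, Homer2 and Adgrg4). Over all 27025 genes with a window the share was 7.72%. CGTCA in either direction stood in 3 (Cck, Rgs2 and Slc39a8), against 19.8% of all genes. The matches in Cck and Pzp were set by the choice of motifs, so these counts cannot show an excess. A match of letters is a description and says nothing about binding. Onecut3 and Gm49708 had no window in the table.

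At the low end, the 8 genes most reduced in I cells were Sst, Gip, Nnat, Rgs4, Iapp, Fabp6, Lyz1 and Defa36. Lyz1 (1.57) and Defa36 (1.15) turned when Cck at 0.5% of UMIs was enough to select cells, and Fabp6 (1.61) turned in male-typed cells. Gip and Sst lead other classes by construction. Nnat, neuronatin, a small membrane protein of calcium handling, was at 8.43 CPM in WT I cells against 709 CPM in K cells, and at 5.78 against 861 CPM in the library labelled NFKO. Rgs4, another regulator of G protein signalling, was at 9.83 against 267 CPM and at 14.7 against 356 CPM in the same classes. Fabp6, the ileal bile acid binding protein, was at 7.02 CPM in WT I cells and 864 CPM in WT N cells, but at 5.56 and 11.6 CPM in the other library. Rgs2 had the opposite order, at 14.5 and 19.0 CPM in K cells of the same libraries.

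Some receptors and channels were rare in I cells and rarer elsewhere; these were picked after their values were seen. Scn9a, the pore subunit of the voltage-gated sodium channel Nav1.7, had 5 UMIs in WT I cells (3.51 CPM) and 94 in I cells labelled NFKO (20.9 CPM), against 0.305 and 0.0555 CPM in other hormone-led cells. It was seen in 35 of 238 I cells labelled NFKO. Mc4r, a melanocortin receptor, was at 5.62 and 14.2 CPM against 0.763 and 0.721 CPM. Gast, which encodes gastrin and whose product shares the C terminus of CCK, was at 32.3 and 84.3 CPM against 5.65 and 9.65 CPM. Casr, the calcium-sensing receptor that also responds to amino acids, was at 10.5 and 7.78 CPM against 2.44 and 2.77 CPM.

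I cells rarely carried Cck alone. Only 26 of 96 WT I cells and 62 of 238 labelled NFKO had no other of the 7 hormones at 0.5% of UMIs or more. The rest, 72.9% (62.9 to 81.5) and 73.9% (67.9 to 79.4), carried a second hormone, and 28 WT cells and 93 labelled NFKO carried at least 3 hormones at that level. In 27 and 68 cells the next hormone had at least 0.5 of the Cck UMIs. Gcg, the proglucagon gene that yields GLP-1, was the most frequent second hormone, in 41 WT I cells (42.7%, 32.7 to 53.2) and 70 labelled NFKO (29.4%, 23.7 to 35.6). Ghrl, the ghrelin gene, came next, in 13 (13.5%, 7.41 to 22.0) and 54 cells (22.7%, 17.5 to 28.5). Gcg was thus less and Ghrl more frequent in the library labelled NFKO, with intervals that overlapped. Nts, neurotensin, was second in 9 and 23 cells, Gip in 5 and 18, Pyy in 2 and 10, and Sst in 0 and 1; the 0 of 96 allows up to 3.77%.

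**Figure D3:**
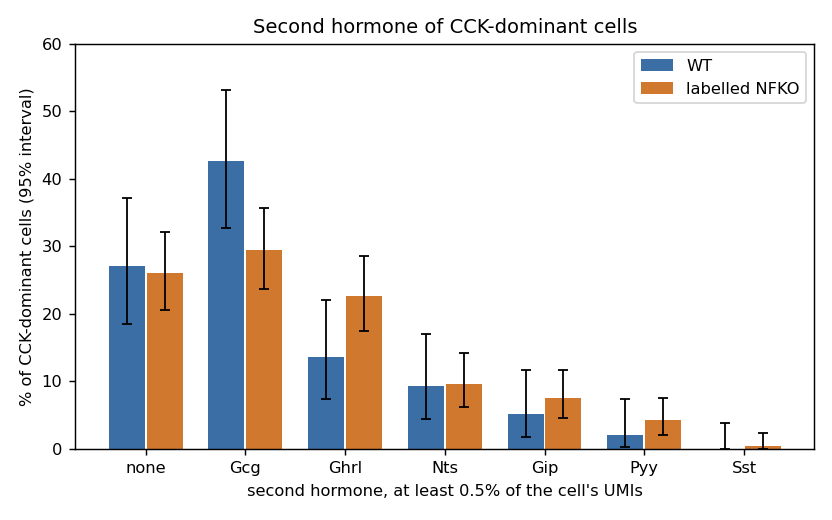
Bars give the percentage of I cells whose second most abundant hormone, at 0.5% of UMIs or more, was the one named, with 95% exact binomial intervals (96 WT cells, 238 cells labelled NFKO). Gcg is the tallest bar in each library (42.7% and 29.4%) and Ghrl follows (13.5% and 22.7%).

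Free RNA gives some hormone UMIs to every cell, so the shares were set beside goblet-marker cells, which had Muc2 or Tff3 at 0.1% of UMIs or more. They were also chosen with each of the 7 hormones below 0.1%, a limit that holds their hormone shares down. At 2000 UMIs Gcg was seen in 77.1% of WT I cells and 5.18% of goblet-marker cells, and in 67.1% against 7.59% in the library labelled NFKO. Ghrl was seen in 56.2% against 2.52% and in 70.3% against 10.2%. Sst was seen in 1.04% against 1.77% and in 10.0% against 11.9%, which is at or below the free RNA level and is not read as expression. Gip was seen in 24.0% against 8.73% in WT, and in 44.3% against 34.5% in the library labelled NFKO.

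Sct, the secretin gene, was not used to select cells. It was found in all 96 and all 238 I cells, and 22 and 33 of them held more Sct than Cck UMIs. Without thinning it was also in 92.8% and 96.2% of goblet-marker cells, so presence alone does not set I cells apart. At 2000 UMIs Sct was seen in 97.9% and 99.5% of I cells, against 43.8% and 64.3% of goblet-marker cells. Its level per cell ran in WT from 655 to 185822 CPM with a median of 12452.5, and in the library labelled NFKO from 301 to 212215 CPM with a median of 19184.5. Over all I cells it stood at 34133 and 52749 CPM, against 13961 and 33983 CPM in other hormone-led cells. Secretin levels followed the second hormone. They were 26475 CPM in WT I cells without one, 23122 with Gcg, 54606 with Ghrl and 64421 with Nts, and 27722, 35919, 56863 and 102715 CPM in the same groups labelled NFKO. In each library the cells with Ghrl or Nts lay above those with none. The few cells with Pyy, 2 and 10, held the most, at 141602 and 130171 CPM.

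Other genes differed between the second-hormone groups as well; the groups rest on measured values, and the genes of this paragraph were picked after their values were seen. Pzp beside Ghrl was at 432 CPM in WT (8 of 13 cells) and 276 CPM in the library labelled NFKO (32 of 54 cells), beside Nts at 106 and 260 CPM, and beside Gcg at 30.7 and 36.7 CPM. The only cell with Sst as second hormone, labelled NFKO, held 27 Pzp UMIs. Cells without a second hormone were at 125 and 160 CPM. Cells led by Ghrl held little Pzp, at 1.01 and 8.41 CPM. Rgs2 was at 759 and 760 CPM beside Ghrl, 98.2 and 243 CPM beside Gcg, and 203 and 338 CPM without a second hormone. Ambp followed the same order, at 618 and 548 CPM beside Ghrl and 41.4 and 93.6 CPM beside Gcg. Id1, an inhibitor of bHLH transcription factors, was at 869 and 509 CPM beside Ghrl and at 214 and 156 CPM without a second hormone.

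The I cells with Gip stood apart. Rgs2 had 0 UMIs in 5 WT cells (up to 50.7 CPM) and 0 in 18 cells labelled NFKO (up to 9.65 CPM). Pzp had 0 and 2 UMIs there, and Onecut3 0 and 38. Other genes ran the other way. Fabp5, a fatty acid binding protein, was at 8014 and 6790 CPM beside Gip, 2397 and 3192 CPM without a second hormone, and 65.3 and 258 CPM beside Ghrl; K cells held 7788 and 10128 CPM. Rbp2, which carries retinol in absorptive cells, was at 2688 and 1895 CPM beside Gip, 25.1 and 90.8 CPM beside Ghrl, and 2541 and 2632 CPM in K cells. Cd44, an adhesion receptor for hyaluronan, was at 304 and 283 CPM beside Gip, at 0 and 5.04 CPM beside Ghrl, and at 449 and 414 CPM in K cells. Cnr1, the cannabinoid receptor CB1, was at 237 and 248 CPM beside Gip, at 0 and 2.02 CPM beside Ghrl, and at 323 and 336 CPM in K cells. Of the 14 leading I cell genes outside Cck, 13 were lower beside Gip than without a second hormone in each library, and Fars2 was higher, at 558 against 459 CPM in WT and 640 against 535 CPM in the other library. The 14 genes were chosen for being lower in a group that holds the K cells, so this count was in part set by that choice. No share over all genes was taken, and the WT group beside Gip was 5 cells. The part of droplets with more than 1 cell in the pattern beside Gip was not tested.

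**Figure D4:**
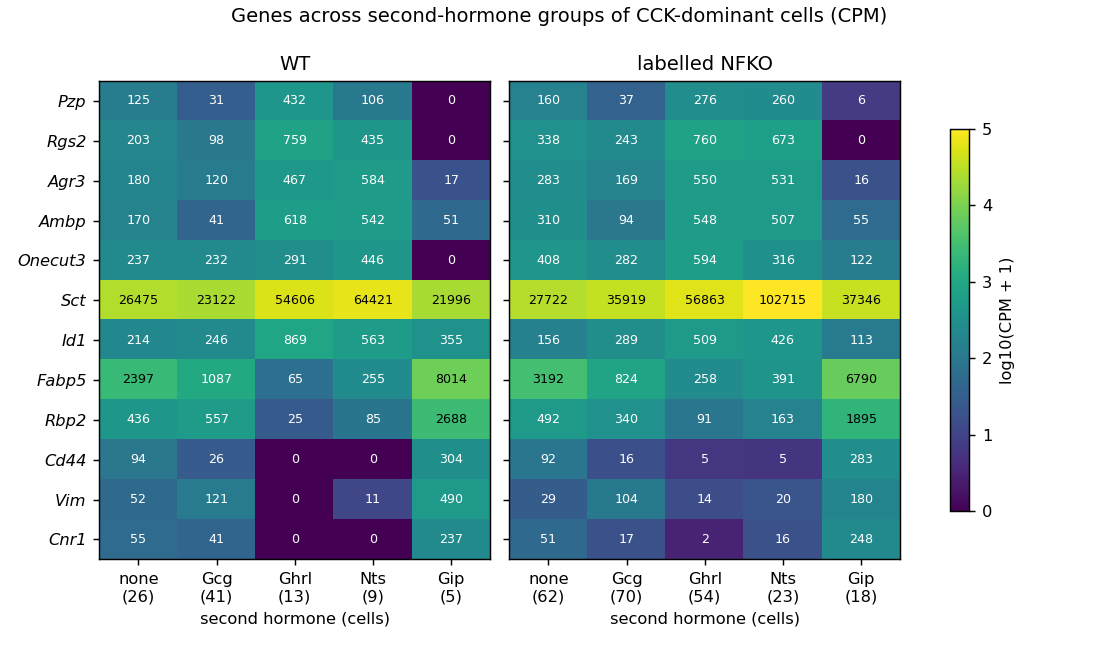
Levels in CPM of 12 genes in I cells grouped by second hormone, with the number of cells under each column; colours give log10(CPM + 1). Pzp, Rgs2, Agr3 and Ambp are highest beside Ghrl or Nts and low or at 0 beside Gip, and Fabp5, Rbp2, Cd44 and Cnr1 have the opposite order in each library.

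The groups with Gcg as second hormone (41 and 70 cells) and with no second hormone (26 and 62 cells) were large enough for a comparison over genes by a rule. Ratios here are the former over the latter, and cells with another second hormone were left out. Of 1676 genes outside the 7 hormones, 3 were at least 2-fold higher beside Gcg in each library (0.179%) and 5 at least 2-fold lower (0.298%). Ddit3, the stress-response transcription factor CHOP, was 2.66-fold higher in WT (1.85 to 3.94) and 3.07-fold in the other library (2.44 to 3.89). Etv1, an ETS transcription factor of endocrine cells, was 2.05-fold (1.68 to 2.51) and 2.11-fold higher (1.86 to 2.39). Anpep, the brush border aminopeptidase N, was 2.04-fold and 2.53-fold higher. Cyp4b1, a cytochrome P450, was 1.61-fold and 2.68-fold higher. The genes lower beside Gcg were Dmbt1 (0.239 and 0.382), Cd74 (0.290 and 0.397), Cdkn1c (0.426 and 0.441), Fabp5 (0.453 and 0.258) and Ldha (0.436 and 0.494), the last a lactate dehydrogenase and Cdkn1c an inhibitor of the cell cycle. In WT 60 of the Dmbt1 UMIs without a second hormone were in 1 cell. When the top cell of each group was left out, only Cd74 (0.385 and 0.498) and Fabp5 (0.430 and 0.249) of the 5 stayed at 2-fold lower in each library, and Dmbt1 was at 0.0931 and 0.698, Cdkn1c at 0.523 and 0.450 and Ldha at 0.489 and 0.503.

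Gene lists of hormone production and sensing were then read in I cells. Of 10 genes that process pro-CCK or help those that do, 8 were compared with other hormone-led cells and 0 were called in either direction; their median log2 ratio was 0.14 in WT and 0.33 in the other library, beside 0.06 and 0.10 over all genes compared. Cpe, carboxypeptidase E, was at 1708 CPM in WT I cells and 1812 CPM in those labelled NFKO, and Pcsk1, prohormone convertase 1/3, at 410 and 415 CPM. Pcsk2, prohormone convertase 2, was nearly absent, with 5 and 3 UMIs. Pam, the amidating enzyme, was at 464 and 447 CPM. The tyrosylprotein sulphotransferase gene Tpst1 was at 78.0 against 30.8 CPM in other hormone-led cells of WT (2.53-fold) and at 93.1 against 51.5 CPM in the other library (1.81-fold), and Tpst2 at 77.3 against 56.0 and 130 against 67.6 CPM. The convertase chaperone Scg5 (184 and 332 CPM) and the convertase inhibitor precursor Pcsk1n (242 and 329 CPM) completed the 5 most abundant.

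Of 10 granins and granule membrane proteins, 10 were compared and 0 called. Chgb, chromogranin B, was the most abundant, at 8322 CPM in WT I cells and 6592 CPM in the other library, followed by Scg2 (1970 and 2038), Chga (546 and 584) and Scg3 (271 and 356). Of 20 genes of regulated exocytosis 9 were compared and 0 called; the most abundant were Cplx2, a complexin that clamps vesicle fusion (256 and 235 CPM), Syt13 (158 and 138) and Syt7 (113 and 124), synaptotagmins of which the latter senses calcium, Syp, synaptophysin (113 and 114), and the monoamine transporter Slc18a1 (72.4 and 80.7). With 0.578% and 0.835% of all genes called, 0 called in these lists does not show that the levels were alike, and Scg2 was higher in I cells by the folds given above.

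Among 30 endocrine transcription factors, 20 were compared with other hormone-led cells and only Onecut3 was called, higher in I cells. Over all 3115 genes 0.578% were called higher and 0.835% lower. Neurod1, a bHLH factor that acts downstream of Neurog3, was at 1154 and 1087 CPM. Etv1 was at 594 and 524 CPM, Isl1, a LIM-homeodomain factor, at 563 and 509, Pax6 at 416 and 334, and the zinc finger factor Insm1 at 360 and 339. The relatives of Onecut3 differed: Onecut2 was at 173 and 201 CPM, and Onecut1 had 0 UMIs in both libraries. Of 10 early endocrine genes 4 were compared and 0 called, which beside those shares does not show that levels were alike. Btg2 was at 1191 and 1029 CPM, Sox4 at 225 and 146, Hes6 at 132 and 149, Cbfa2t3 at 136 and 108 and Dll4 at 54.8 and 44.7.

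Of 20 receptors and transporters for nutrients, 17 had a UMI in I cells, 6 were compared with other hormone-led cells and 0 were called. With 0.578% of all 3115 genes called higher and 0.835% lower, 0 of 6 does not show that levels were alike. Ffar1, the receptor for long-chain fatty acids, was at 447 CPM in WT I cells against 297 CPM in other hormone-led cells, and at 335 against 220 CPM in the other library. Ffar2, a receptor for short-chain fatty acids, was at 127 against 104 and 162 against 74.9 CPM. Abcc8, the sulphonylurea receptor subunit of the potassium channel closed by ATP, was at 182 and 178 CPM. The sodium-glucose cotransporter Slc5a1 was lower than elsewhere, at 125 against 217 and 90.7 against 168 CPM, and the peptide transporter Slc15a1 was at 92.0 and 97.6 CPM. The umami and sweet receptor genes Tas1r1 and Tas1r2 and the aromatic amino acid receptor Gpr142 had 0 UMIs.

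Of 20 hormone and transmitter receptors, 13 had a UMI, and only Sstr5, a somatostatin receptor, was abundant enough to compare, at 56.2 against 33.3 and 50.5 against 31.2 CPM. Insr, the insulin receptor, was at 40.0 and 32.9 CPM, Galr1, a galanin receptor, at 39.3 and 30.9, Sstr1 at 17.6 and 27.8, and Gipr, the GIP receptor, at 18.3 and 10.0. The CCK receptor genes Cckar and Cckbr had 0 UMIs in both libraries, as did Npy2r, Ntsr1, Lepr, Ghsr and Htr4. Of 20 ion channel genes 5 were compared and 0 called, which beside 0.578% and 0.835% over all genes does not show that levels were alike. The most abundant were the calcium channel genes Cacna1a (481 and 384 CPM) and Cacna2d1 (277 and 274), the potassium channel gene Kcnb2 (162 and 136), the sodium channel gene Scn3a (145 and 94.0) and the T-type channel gene Cacna1h (52.7 and 54.0).

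WT and NFKO-labelled I cells were then compared. Foxo1 (chromosome 3, 52268336 to 52353221), the targeted gene, had 37 UMIs in WT I cells (26.0 CPM) and 73 in those labelled NFKO (16.2 CPM), a ratio of 0.624 (0.415 to 0.954). Its ratio was 0.718 in other hormone-led cells and 0.927 in goblet-marker cells. Reads from the 3′ end still count a transcript that has lost an inner exon, so this count does not check the deletion. Foxo1 lay below the level at which genes were compared, as did its relatives Foxo3, at 26.7 and 19.1 CPM, and Foxo4, at 24.6 and 12.0 CPM, and Foxo6. Of 16 FoxO target genes 6 were compared and 0 called. Of all 3519 genes compared between the libraries 2.27% were called, so 0 of 6 does not show that these genes were unchanged. The most abundant were Cdkn1a (765 and 778 CPM), Txnip (230 and 216), Map1lc3b (159 and 136), Gadd45a (157 and 106) and Sod2 (110 and 123).

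Of 3519 genes compared (at least 50 CPM in either library and 100 UMIs over both), 32 were at least 2-fold higher in I cells labelled NFKO (0.909%). In the other direction 48 reached 2-fold (1.36%), and the median log2 ratio was -0.03. Cck was 1.47-fold higher (1.46 to 1.48). Sct was 1.55-fold, Nts 1.96-fold, Gip 1.72-fold, Pyy 1.65-fold and Ghrl 1.36-fold higher, and Gcg was at 0.696 of its WT level. In I cells without a second hormone Sct was at 1.05 and Gcg at 1.26. Onecut3 was 1.52-fold higher (1.35 to 1.71) and Scg2 was at 1.03 (0.991 to 1.08). Of the 7 selecting hormones only Sst was called, and 2842 of its 3043 UMIs in the library labelled NFKO came from 1 cell. Without the cell with most Sst in each library its ratio was 5.77 in place of 80.2. At 2000 UMIs goblet-marker cells also held these hormones more often in the library labelled NFKO than in WT. In WT and that library Nts was seen in 3.41% and 29.2% of them, Gip in 8.73% and 34.5% and Pyy in 1.84% and 5.82%. Ghrl was seen in 2.52% and 10.2%, Sct in 43.8% and 64.3% and Cck in 6.27% and 20%. Gcg was seen in 5.18% and 7.59% and Sst in 1.77% and 11.9%. The part of free RNA in the ratios of this paragraph was not tested.

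The 8 genes highest in I cells labelled NFKO were Mptx1, Sst, Lpl, Zg16, Iapp, Tph1, Crp and Serpina1e. Lpl, lipoprotein lipase, was spread over many cells: it had 3 UMIs in 3 of 96 WT cells and 474 in 112 of 238 others, a ratio of 50 (17.0 to 243). Its ratio in other hormone-led cells was 7.48. Crp, the acute-phase C-reactive protein, was at 14 CPM in WT and 90.7 CPM in the other library, 6.46-fold higher (4.13 to 10.7), and was seen in 11 and 141 cells. Serpina1e, an alpha-1-antitrypsin gene, was at 21.1 and 130 CPM, 6.17-fold higher (4.28 to 9.23), and at 1.91 between male-typed cells, where its interval held 1. Its near-identical relatives Serpina1b and Serpina1c were called too (2.14 and 2.16), and the counting can split reads among them.

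The spread over cells differed among the other highest genes. Mptx1, a mucosal pentraxin, had 1 UMI in WT and 511 in the other library, of which 261 were in 1 cell. Iapp, islet amyloid polypeptide, had 3 and 274 UMIs, of which 253 were in 1 cell, and its ratio of 28.9 became 6.63 without the top cells. That cell was the only I cell with Sst as second hormone, and it also held the 2842 Sst UMIs given above. The levels of Sst and Iapp thus rested largely on the same cell. Tph1, the rate-limiting enzyme of serotonin synthesis, had 49 UMIs in 7 WT cells, 39 of them in 1 cell, and 1048 in 72 cells labelled NFKO; its ratio was 6.77 (5.08 to 9.21), 29.9 without the top cells and 1.71 between cells without a second hormone. Zg16, a lectin of goblet granules, went from 97.6 to 3750 CPM (38.4-fold, 32.5 to 45.7), and 6 cells held 0.5 of its UMIs in the library labelled NFKO. The median cell held 70.4 CPM of Zg16 in WT and 550 CPM in the library labelled NFKO.

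**Figure D5:**
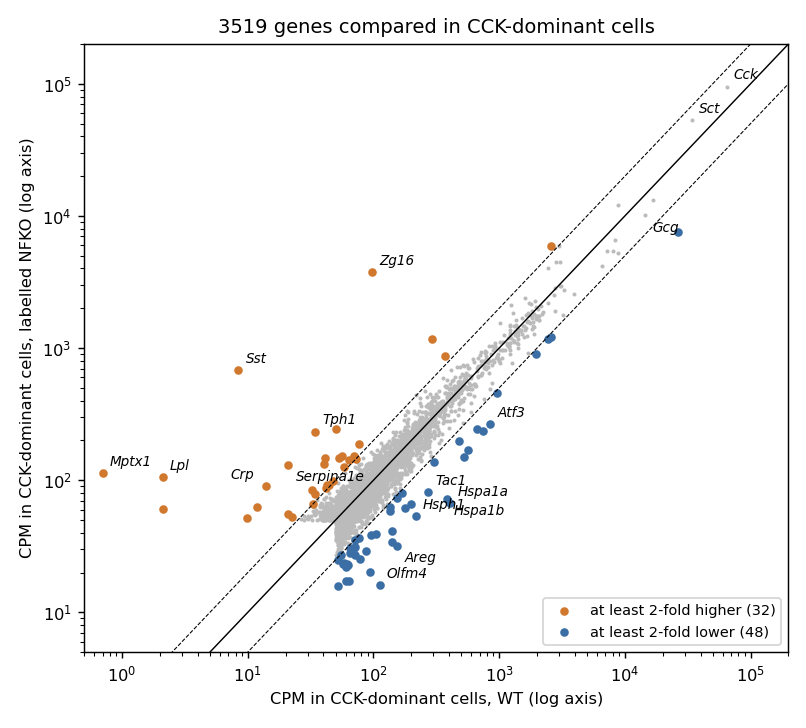
Each point is 1 of 3519 genes; axes are CPM in WT and NFKO-labelled I cells (log scale), the solid line marks equal levels and the dashed lines 2-fold differences. The 32 genes above the upper dashed line include Zg16, Sst, Lpl and Mptx1, and the 48 below the lower one include the heat shock genes Hspa1a, Hspa1b and Hsph1.

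Goblet markers were higher over all I cells. All 7 had a ratio above 1 and 5 were called, Muc2 (2.35), Tff3 (2.27), Clca1 (4.85), Fcgbp (4.05) and Zg16 (38.4). Over all 3519 genes 46.2% had a ratio of 1 or more and 0.909% were called higher. The median log2 ratio of the 7 was 1.23, and 2.93 when each cell weighed equally. Single cells carried much of the WT values, with 403 of 527 UMIs of Muc2, the main secreted mucin, 53 of 72 of Clca1 and 1328 of 3691 of Tff3 in 1 cell. Without the top cell of each library the ratios were 8.33 for Muc2, 15.6 for Clca1, 3.15 for Tff3, 5.52 for Fcgbp and 37.2 for Zg16. Between male-typed cells, 78 and 12, they were 0.596 for Muc2 (0.432 to 0.805), 0.451 for Clca1 (0.142 to 1.10) and 0.866 for Fcgbp (0.631 to 1.17). Tff3 was at 1.12 and Zg16 at 6.12 there. So 3 of the 5 lay below 1, but the intervals of Clca1 and Fcgbp held 1. The male-typed WT counts of Muc2, Clca1 and Fcgbp (512, 72 and 375 UMIs) still held the top cells, with 403, 53 and 156 UMIs. Male-typed ratios without those cells were not taken. The median cell held 15 CPM of Muc2 in WT and 203 CPM in the library labelled NFKO. Their summed level was 7692 CPM in WT I cells and 17879 CPM in those labelled NFKO. It also differed in other hormone-led cells, at 7196 and 16893 CPM, and in goblet-marker cells, at 91444 and 130358 CPM. At 2000 UMIs Zg16 was seen in 17.7% of WT I cells and 68.5% of those labelled NFKO, against 58.1% and 82.8% of goblet-marker cells. Without thinning Zg16 was in 66.7% and 100% of I cells, at unequal depth. Without the highest Scrublet scores its ratio was 6.33, and the part of free RNA and mixed droplets in these ratios was not tested.

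Stress genes were lower together. Of 20 heat shock and immediate early genes 17 were compared, 17 were below 1 and 7 were called lower. Over all 3519 genes 53.8% were below 1 and 1.36% were called lower. The median log2 ratio of the 17 was -0.87 under the main scaling and negative under each of the 3 other scalings. Hspa1a and Hspa1b, which encode inducible HSP70, went from 409 to 66.9 CPM (0.164, 0.142 to 0.188) and from 381 to 72.2 CPM (0.189, 0.165 to 0.218). Hsph1, an HSP110 (0.247), Dnajb1, an HSP40 (0.301), Atf3 (0.312), Hsp90aa1 (0.457) and Jun (0.472) were the others. In other hormone-led cells the ratios were 0.105 for Hspa1a, 0.119 for Hspa1b and 0.396 for Atf3. These genes respond to dissociation and handling of tissue, and the part of handling in their difference was not tested.

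The remaining genes among the 8 lowest were Olfm4, Areg, Fam13a, Utp14b and Hist1h4d. Areg, the EGF receptor ligand amphiregulin, went from 155 to 31.8 CPM (0.206, 0.165 to 0.255). Fam13a went from 94.1 to 20.2 CPM (0.215), Utp14b, a ribosomal RNA processing gene, from 141 to 34.0 CPM (0.241), and Hist1h4d, a histone H4 gene of a family of near-identical copies, from 63.9 to 17.3 CPM (0.271). Olfm4, a stem cell marker, had 138 of its 159 WT UMIs in 1 cell, and its ratio of 0.143 became 0.435 without the top cells and turned to 1.75 without the highest Scrublet scores. Gm42418, which overlaps ribosomal RNA, went from 26287 to 7527 CPM and mt-Atp8 from 530 to 150 CPM.

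The other hormone-led cells were read for the same genes. Of the 32 called higher in I cells, all 32 had a ratio above 1 and 21 a ratio of at least 2 in the other hormone-led cells. Of the 48 called lower, 46 had a ratio below 1 and 28 a ratio of at most 0.5 there. The share of all 3519 compared genes with such ratios in those cells was not taken. The counts are thus a description and show nothing particular to the called genes. No difference between these classes was tested. Car8, a carbonic anhydrase-related protein, was at 0.452 in I cells and 0.816 in the others.

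Over all 3519 genes 53.8% had a ratio below 1 and 2.27% were called in either direction. This is the background for every list compared between the libraries, those of hormone production included. Of 16 hormone and transmitter genes outside the selection 8 were compared, Tph1, Iapp and Gast were called higher (Gast 2.61, 1.92 to 3.62, but 0.95 between male-typed cells; Iapp turned to 0.319 in cells with no second hormone) and Tac1 lower (0.299; 221 of 389 WT UMIs were in 1 cell, and it was 0.497 without the top cells). Of 8 maturation enzymes compared, 7 had a ratio above 1 and 0 were called, with a median log2 ratio of 0.35; Scg5 was 1.81-fold, Tpst2 1.69-fold and Qpct, a glutaminyl cyclase, 1.45-fold higher. Of 9 granins 5 were above 1 and 0 called, and of 11 exocytosis genes 7 were above 1 and 0 called; the medians of both lists, 0.05 and 0.14, turned negative when each cell weighed equally. Of 22 endocrine transcription factors 16 were below 1 and 0 called (median -0.20), among them Etv1 at 0.883 and Rfx6, a factor of endocrine differentiation, at 0.584. Among 5 early endocrine genes 4 were below 1, among 7 nutrient receptors 5, and among 5 channels 4, and 0 were called in each; with that background, 0 called shows nothing particular to these lists.

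Markers of other cell types were summed in I cells. Enterocyte markers summed to 1813 and 2199 CPM, against 1065 and 1541 CPM in other hormone-led cells, led by Sis, sucrase-isomaltase (1212 and 1299 CPM), and 0 of 4 compared were called between the libraries. Paneth markers summed to 1191 and 1514 CPM, led by Defa24 (614 and 822 CPM), against 4966 and 10847 CPM in other hormone-led cells, where single cells reached 365605 and 456120 CPM. The median cells held 1056 and 1108 CPM of Paneth markers among I cells, and 1467 and 1272 CPM among the others. Enterochromaffin markers summed to 1836 and 1908 CPM, with Ddc, the decarboxylase of serotonin synthesis, at 538 and 514 CPM. Stem markers summed to 268 and 123 CPM and cycling markers to 129 and 121 CPM. Of 7 tuft markers 6 were at 0 in WT and 1 in the other library, with sums of 11.9 and 23.1 CPM. Of 6 immune markers 5 and 6 were at 0. Their part in any difference between the libraries was not tested.

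Regional and pancreatic genes completed the lists. Of 10 proximal genes 3 were compared between the libraries and 0 called; Gata4, a factor of the proximal intestine, was at 50.6 and 41.3 CPM and Pdx1 at 16.2 and 36.5 CPM. Of 10 distal genes only Osr2 was compared, at 55.5 and 29.1 CPM. Of 10 pancreatic beta cell genes Ins1, Ins2, Nkx6-1 and G6pc2 had 0 UMIs in I cells of both libraries, which allows up to 2.11 and 0.667 CPM. Iapp was the gene called, and 253 of its 274 UMIs in the library labelled NFKO were in 1 cell.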

How the data were processed

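Both libraries were 10x 3′ single-cell RNA-Seq of sorted cells. Per the labels, the authors aligned reads to mm10 and made the deposited UMI counts per gene and barcode with Cell Ranger 5.0.1; the annotation version is not given in the sources used here. Counts were used as deposited, without a count model, since each group is 1 library. Gene positions are from GENCODE M21 (GRCm38). The members and gene lists were chosen with earlier results of these data known. Cell limits are those of the opening; no deposited cell annotation was used.

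Within each class and library the UMIs of all cells were added and scaled to CPM. Genes with at least 50 CPM in either group and 100 UMIs over both were compared, and a gene counted as called at 2-fold or more. Intervals are exact at 95% (Poisson, Clopper-Pearson, or conditional binomial for ratios) and cover counting error only; a count of 0 allows 3 UMIs. Goblet-marker cells were passing cells with Muc2 or Tff3 at 0.1% of UMIs or more and each of the 7 hormones below 0.1%. Shares of cells with a UMI were taken after thinning to 2000 UMIs.

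Genes named in the text were the markers, the 7 hormones and Foxo1, the 8 highest and 8 lowest ratios between libraries, the 15 highest and 8 lowest between I and other hormone-led cells, the 5 most abundant and any called gene among those of 26 lists with 275 genes, and the 5 highest in second-hormone groups of at least 20 cells; sex-linked genes were left out of ratios. Other named genes were picked after their values were seen. A few genes that the rule names are not reported here. Scrublet (scanpy 1.11.5) marked 3 and 0 cells by its automatic threshold, which was taken as not working, so doublets were kept, and an alternative removed the 126 and 340 highest scores of 3129 and 5632. Scripts used Python 3.11.15, numpy 2.4.6, pandas 2.3.3, scipy 1.17.1 and matplotlib 3.10.9, and were checked on simulated data. Alternatives varied the cell limits, scaling, expression limits, thinning and sex.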

Additional observations from a re-analysis of the deposited data

Results flagged for a closer look

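Reg4, a secreted lectin of the intestinal epithelium, differed in direction between the libraries and was picked after its values were seen. It was 3.11-fold higher in I cells than in other hormone-led cells in WT and at 0.482 in the library labelled NFKO. The difference between the libraries was not tested. In WT 99 of 108 Reg4 UMIs came from 1 cell and in the other library 235 of 434. Without these cells the ratio was 0.261 (0.117 to 0.509) and 0.222 (0.192 to 0.256).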

How the results depend on the processing

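No paired analysis was possible because each genotype is 1 library and no test was run. Between the libraries, the count of genes at least 2-fold higher was 55 with Cck at 0.5% of UMIs or more, 73 with limits of 20 CPM and 50 UMIs, 584 without a limit and 58 in I cells with no second hormone; the count lower was 114 in male-typed cells (78 and 12 I cells), 133 with limits of 20 CPM and 50 UMIs and 1464 without a limit. Between I and other hormone-led cells, the count higher was 29 with Cck at 3% or more, 9 in male-typed cells, 40 with the lower limits and 285 without one, and the count lower was 16 with Cck at 0.5%, 59 with the lower limits and 279 without one. Among the named genes read under the alternatives, directions turned for Lyz1 (1.57) and Defa36 (1.15) with Cck at 0.5%. They also turned for Olfm4 (1.75) without the highest Scrublet scores and for Gast (0.95) and Fabp6 (1.61) in male-typed cells. Iapp (0.319) turned with no second hormone. Outside that set, the goblet markers Muc2 (0.596), Clca1 (0.451) and Fcgbp (0.866) fell below 1 in male-typed cells. The intervals of Clca1 and Fcgbp held 1. The cause was not tested. The values of Gast (41 and 6 UMIs) and Iapp (3 and 3 UMIs) rest on counts too small to show a direction. In male-typed cells the ratio of shares was 1.07. The share with a second hormone was 60% in WT with Cck at 0.5%, 91.7% in male-typed cells labelled NFKO, 84.0% labelled NFKO with the second hormone at 0.2%, and 59.4% and 65.1% with it at 1%. Onecut3 was seen in 16.7% and 26.1% of I cells thinned to 1000 UMIs, in 53.5% of those labelled NFKO at 4000, and in 55.2% and 63.0% unthinned; Scg2 in 65.5% labelled NFKO at 1000, 83.0% in WT at 4000, and 88.5% and 86.1% unthinned. Of 355 values of 24 named genes between libraries, 270 moved less than the interval, 82 moved more and 3 turned; of 345 values of 23 genes between classes, 269, 73 and 3. Leaving out each gene's richest cell, also in the Gcg-second groups, was chosen after seeing the data. Depth limits genes under about 3 UMIs per library.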
